A study of Mus musculus with 53 samples.

Results

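Emcn, Eng, Egfl7, Neurl3, Kdr, Tek, Tie1, Esam, Sox17 and Sox18, 10 genes of the endothelial programme, were followed in single mouse T1 pre-HSCs, the type 1 precursors of haematopoietic stem cells (HSCs). They were chosen by symbol, as known endothelial genes, and all 10 of 10 were found among the 14833 genes of the deposited table. The cells compared were 12 H19 DMR KO cells (genotype label mH19 delta_DMR/+, cells 1 to 12) and 9 wildtype cells (genotype label mH19 flDMR/+, cells 13 to 22 without 19). H19 is an imprinted long non-coding RNA, and the DMR is the differentially methylated region that controls it. The KO cells carry the DMR in its deleted form and the cells called wildtype carry it in the form written flDMR, by usual notation flanked by loxP sites, so neither group is free of an altered allele. All came from the aorta-gonad-mesonephros (AGM) region of E11 embryos. The sources used here do not give the Cre driver, the strain of these embryos or the sorting markers. The series holds 53 samples, of which 26 adult HSCs and 5 methylation libraries were not used. The labels tie no cell to an embryo, a litter or a sort, so each genotype counts as 1 sample, cells are not replicates, no test between genotypes was made, and every spread below is over cells.

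HSCs arise in the AGM region from haemogenic endothelium, a layer of endothelial cells lining the dorsal aorta that loses endothelial features as blood features appear. T1 pre-HSCs are taken at an early step of this change and are known to carry endothelial surface proteins such as VE-cadherin. The genes described here cover the main layers of that endothelial programme, namely surface glycoproteins, receptor tyrosine kinases, a secreted factor, a ubiquitin ligase of haemogenic endothelium and a pair of SoxF transcription factors.

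ETS factors such as Erg and Fli1 are general regulators of endothelial genes and bind sites around the letters GGAA. RefSeq promoter windows on build GRCm38.p6, each of 300 bases around a transcript start, were used for 7 of the 10 genes, with 9 windows in all because Egfl7 has 3 starts. The words CAGGAA and CCGGAA, searched on both strands, were found in 8 of these 9 windows and in the windows of all 7 genes. Of all 32851 windows of this length, 41.4% held one. The windows of Eng and Neurl3, of one Egfl7 start and of Tek are shown because pairs of these genes were among the closest across cells. Of the 3 Egfl7 windows, the one shown held 2 of these words, and the others held 1 and 0. Each runs 5′ to 3′ on the strand of the gene, and capitals mark the words.
Eng, chr2:32646345-32646644, plus strand: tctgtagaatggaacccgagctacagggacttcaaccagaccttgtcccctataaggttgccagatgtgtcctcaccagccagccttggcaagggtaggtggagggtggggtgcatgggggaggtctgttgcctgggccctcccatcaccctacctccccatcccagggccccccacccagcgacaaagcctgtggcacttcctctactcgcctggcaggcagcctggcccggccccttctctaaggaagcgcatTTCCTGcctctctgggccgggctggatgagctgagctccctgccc
Neurl3, chr1:36273376-36273675, minus strand: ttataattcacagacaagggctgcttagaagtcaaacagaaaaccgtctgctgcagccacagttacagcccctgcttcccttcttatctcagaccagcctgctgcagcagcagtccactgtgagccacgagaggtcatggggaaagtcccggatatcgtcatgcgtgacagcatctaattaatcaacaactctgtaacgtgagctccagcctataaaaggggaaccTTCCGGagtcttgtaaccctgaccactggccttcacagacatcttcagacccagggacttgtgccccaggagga
Egfl7, chr2:26580833-26581132, plus strand: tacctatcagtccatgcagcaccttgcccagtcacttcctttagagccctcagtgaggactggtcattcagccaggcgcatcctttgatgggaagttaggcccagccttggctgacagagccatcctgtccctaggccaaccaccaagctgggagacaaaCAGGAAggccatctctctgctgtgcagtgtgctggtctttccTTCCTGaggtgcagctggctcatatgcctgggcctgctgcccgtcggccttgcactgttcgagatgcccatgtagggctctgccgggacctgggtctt
Tek, chr4:94739039-94739338, plus strand: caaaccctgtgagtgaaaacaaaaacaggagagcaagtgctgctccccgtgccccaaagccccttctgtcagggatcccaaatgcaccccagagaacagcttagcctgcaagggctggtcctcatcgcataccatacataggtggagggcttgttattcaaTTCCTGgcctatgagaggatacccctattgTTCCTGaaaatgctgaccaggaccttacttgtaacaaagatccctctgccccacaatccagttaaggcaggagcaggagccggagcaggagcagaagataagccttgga
In Eng the word lay 5 bases after the start, in Neurl3 24 bases before it, in Egfl7 90 and 48 bases before it, and in Tek 89 and 59 bases before it. The Sox word AACAAT, on either strand, was found in 2 of the 9 windows, those of Emcn and Tek, against 10.7% of all windows, and in Tek it shares letters with the nearer ETS word. The GATA word AGATAA was found in 2 of 9, those of Neurl3 and Tek, against 11.2% of all windows. A window surrounds the start of 1 transcript, which need not be the outer end of the gene span given below. These are matches of letters in short windows and no binding was measured.

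Each cell was taken by mouth pipette and amplified singly, and the values are RPKM, reads scaled to the length of the transcript and to the reads mapped in that cell. A gene counts as detected here at 1 RPKM or more. H19 checked the labels, at 0 to 186 RPKM in KO cells and 231 to 1261 RPKM in wildtype cells, without overlap. The number of genes detected per cell, leaving out the 10 endothelial genes, was 1517 to 8398 in KO cells (median 3170) and 2066 to 5709 in wildtype cells (median 4169). Wildtype cell 19 was left out because its column was out of step with the gene names in 24 of 29 stretches of 500 rows, while no other cell was in any. Among defining markers of the labelled cell type, Cdh5 (VE-cadherin) was detected in 7 of the 12 KO cells and 7 of the 9 wildtype cells, Kit in 7 and 5, and Ptprc (CD45), which T1 cells are known to lack, in 1 and 1. Of the same list, Pecam1 was detected in 6 and 6, Itga2b in 3 and 3, Cd34 in 3 and 1 and Spn in 3 and 0. Procr, Runx1 and Gfi1 are given below. Several of these markers were thus missing at 1 RPKM in many of the cells.

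Of the 12 KO cells 11, and of the 9 wildtype cells all 9, held at least 1 of the endothelial genes, but unevenly so. Of the 120 gene-by-cell values in KO cells, 58 (48.3%) reached 1 RPKM, against 52 of 90 (57.8%) in wildtype cells. KO cells spread across the whole range. KO cell 5 had all 10 genes, KO cells 2, 4 and 6 had 9 each, and KO cell 8 had 6. KO cells 7 and 9 had 4 each, KO cells 10, 11 and 12 had 2 each, KO cell 3 had 1 and KO cell 1 had none. Wildtype cells were closer together, with 9 genes in cell 15, 7 each in cells 16, 17, 18 and 21, 6 in cell 22 and 5 in cell 20, while cells 14 and 13 had 3 and 1. The median was 4 genes per KO cell and 7 genes per wildtype cell. Of all 210 values, 69 were listed at 0 and 31 lay above 0 and below 1 RPKM. An exact 0 can be a failed estimate.

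**Figure D1:**
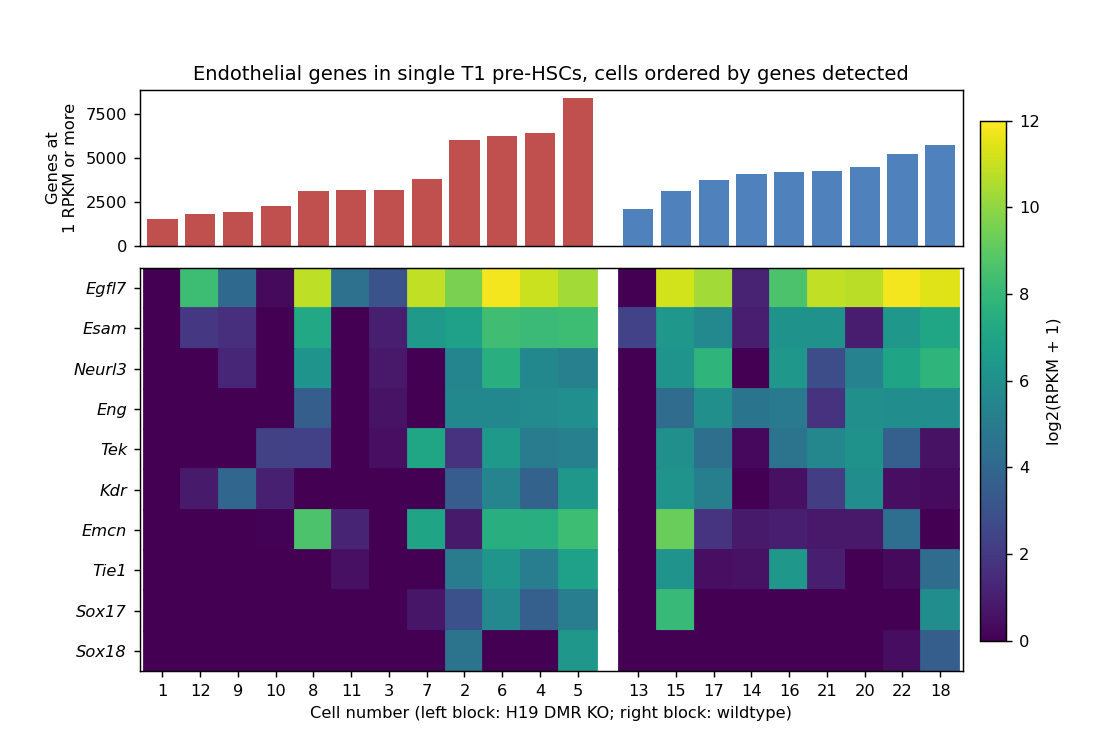
Level of the 10 endothelial genes in each cell as log2(RPKM + 1) by colour (lower panel), with the number of genes at 1 RPKM or more in the same cell (bars, upper panel); KO cells are in the left block and wildtype cells in the right block, each ordered by genes detected. KO cells 2, 4, 5 and 6, at the right of the KO block, carry 9 or 10 of the genes, and KO cell 1 carries none.

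Among the surface proteins, Eng separated the genotypes most in detection. Eng (endoglin, a coreceptor for ligands of the TGF-beta family; gene at chr2:32646595-32682669, GRCm38.p6) was at 0, 0.258 and 60.4 RPKM in KO cells and at 0, 28.6 and 62.9 RPKM in wildtype cells (lowest, median and highest). It was detected in 5 of 12 KO cells (41.7%, exact Clopper-Pearson 95% interval 15.2 to 72.3%) and in 8 of 9 wildtype cells (88.9%, 51.8 to 99.7%). These intervals cover counting error only, and they overlap. The KO cells with Eng were 2, 4, 5, 6 and 8, and the wildtype cell without it was cell 13. Where Eng was detected its median was 47.5 RPKM in KO cells and 42.2 RPKM in wildtype cells. The gap thus lay in the number of cells at 1 RPKM or more rather than in the median level in them. Over both genotypes, cells with Eng had a median of 4466 genes detected and cells without it 2162. A value below 1 RPKM does not show that the transcript was absent.

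Emcn (endomucin, an endothelial sialomucin; chr3:137341062-137431069) was the single one of the endothelial genes that was higher in KO cells by the size rule used below. Its lowest, median and highest values were 0, 1.04 and 390 RPKM in KO cells and 0.00189, 0.786 and 603 RPKM in wildtype cells. KO cells 4, 5, 6, 7 and 8 lay between 126 and 390 RPKM and all other KO cells at or below 1.30 RPKM. In wildtype cells, cell 15 alone was at 603 RPKM, cell 22 was at 18.3 RPKM, and the rest were at or below 2.46 RPKM. The ranges overlap. Detection was alike in number, at 6 of 12 KO cells and 4 of 9 wildtype cells, and the median where detected was 186 RPKM in KO cells and 10.4 RPKM in wildtype cells.

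Esam (endothelial cell adhesion molecule, a junction protein also found on HSCs; chr9:37528089-37538319) was at 0, 45.6 and 319 RPKM in KO cells and at 0.976, 67.9 and 136 RPKM in wildtype cells. It was detected in 8 of 12 KO cells and 8 of 9 wildtype cells. KO cells 2, 4, 5, 6 and 8 were between 107 and 319 RPKM, and among wildtype cells only cell 18, at 136 RPKM, was above the lowest of these.

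Of the receptor tyrosine kinases, Kdr (VEGF receptor 2, the main receptor for Vegfa; chr5:75932827-75979072) was at 0, 0.918 and 80.8 RPKM in KO cells and at 0, 0.411 and 70.6 RPKM in wildtype cells. Detection was 6 of 12 in KO cells and 4 of 9 in wildtype cells. Tek (Tie2, the receptor for angiopoietins; chr4:94739086-94874976) was at 0, 3.06 and 138 RPKM in KO cells and at 0, 18.9 and 68.7 RPKM in wildtype cells, with detection in 7 of 12 and 6 of 9. Tie1 (the orphan partner of Tek; chr4:118471191-118489849) was at 0, 0 and 108 RPKM in KO cells and at 0, 0.434 and 82.2 RPKM in wildtype cells, with detection in 4 of 12 and 4 of 9. The ranges of each receptor overlapped between the genotypes almost throughout. All 3 receptors were detected together in KO cells 2, 4, 5 and 6 and in wildtype cells 15 and 21, and none of the 3 in KO cells 1, 3, 11 and 12 and wildtype cells 13 and 14. A single receptor could be high alone. KO cell 7 held the highest Tek value, 138 RPKM, with Kdr and Tie1 both listed at 0.

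Egfl7 (a secreted factor of endothelial cells; chr2:26581083-26592682) was the most abundant of the 10 on this length-scaled measure. Its lowest, median and highest values were 0, 534 and 3498 RPKM in KO cells and 0, 1741 and 3550 RPKM in wildtype cells. It was detected in 10 of 12 KO cells and 8 of 9 wildtype cells and was the highest of the 10 genes in 17 of the 20 cells that had any of them above 0. In KO cells the values fell into separate bands. KO cells 2, 4, 5, 6, 7 and 8 were between 765 and 3498 RPKM, KO cell 12 was at 303 RPKM, and the others were at or below 20.3 RPKM. Of the wildtype cells, cells 13 and 14 were at 0 and 1.22 RPKM, cell 16 was at 393 RPKM, and the remaining 6 were between 1288 and 3550 RPKM.

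Neurl3 (a ubiquitin ligase gene known in the mouse to mark haemogenic endothelium; chr1:36264602-36274674) was at 0, 1.06 and 190 RPKM in KO cells and at 0, 74.1 and 224 RPKM in wildtype cells. It was detected in 6 of 12 KO cells and 7 of 9 wildtype cells. KO cells 2, 4, 5, 6 and 8 were between 35.2 and 190 RPKM, and all other KO cells were at or below 1.43 RPKM. Wildtype cells 13 and 14 were below 1 RPKM, cell 21 was at 5.88 RPKM and the other 6 were between 37.6 and 224 RPKM. Its high KO cells were thus the same 5 cells that carried Eng.

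The SoxF transcription factors, which act in arterial specification and in haemogenic endothelium, were sparse. Sox17 (chr1:4490928-4497426) was detected in KO cells 2, 4, 5 and 6, at 6.90, 10.8, 31.6 and 48.8 RPKM, and in wildtype cells 15 and 18, at 275 and 56.1 RPKM. It was listed at 0 in 7 KO and 7 wildtype cells. Sox18 (chr2:181669837-181671640) was detected in KO cells 2 and 5, at 22.7 and 84.7 RPKM, and in wildtype cell 18, at 10.8 RPKM. All 3 cells with Sox18 also held Sox17.

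**Figure D2:**
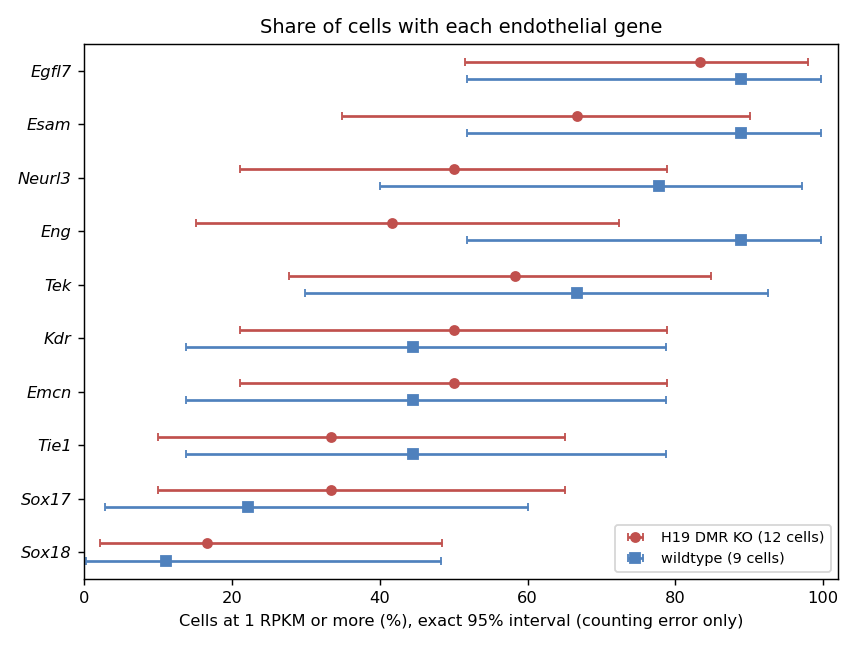
Share of cells at 1 RPKM or more for each gene in KO cells (circles, upper of each pair) and wildtype cells (squares, lower of each pair), in percent, with exact 95% intervals that cover counting error only. Eng shows the widest gap, 41.7% in KO cells and 88.9% in wildtype cells, and the intervals overlap for every gene.

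Ordered by the median RPKM over all 21 cells, Egfl7 stood at 1280, Esam at 67.9, Neurl3 at 35.2, Eng at 17.4, Tek at 4.02, Kdr at 0.790, Emcn at 0.786 and Tie1 at 0.365 RPKM, with Sox17 and Sox18 at 0. Within cells, Egfl7 was above its neighbour Esam in 19 of 21 cells, below it in 1 and equal to it in 1. No other neighbours were ordered so evenly. Esam was above Neurl3 in 13 cells and below it in 6, Eng was above Tek in 10 and below it in 8, and Kdr was above Emcn in 8 and below it in 12. The ranges over cells overlapped for every pair of neighbours. Over the cells in which a gene was detected, the order changed, and Emcn was next after Egfl7, at medians of 154 and 1515 RPKM. Emcn was thus detected in fewer cells than Esam (10 and 16 of 21) but at a higher median there than the 82.0 RPKM of Esam. The lowest of these medians were those of Kdr and Sox18, at 24.2 and 22.7 RPKM.

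The genotypes were compared by the difference of mean log2(RPKM + 1), KO minus wildtype, a scale that makes changes of low genes look smaller. A gene was compared if 50% or more of the KO cells or of the wildtype cells had it at 1 RPKM, which 3867 genes did, among them 7 of the 10. Tie1, Sox17 and Sox18 were too sparse. Emcn and Kdr passed through KO cells alone (each 6 of 12, against 4 of 9 wildtype cells). Eng passed through wildtype cells alone (8 of 9, against 5 of 12 KO cells). The filter thus partly sets the calls of Emcn and Eng below, and they are not used as support. A difference of 1 or more in size counts as large, and no test stands behind this rule. By it 3 of the 7 were lower in KO cells and 1 was higher, while 28.0% of all genes compared were lower and 11.4% were higher. With so few genes, these counts are not read as setting the endothelial genes apart. The median difference of the 7 genes compared was -0.89, and that of all genes compared was -0.36. Over all 10 genes, 3 of which did not pass the filter, the median difference was -0.38.

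The genes lower by this rule were Neurl3, Eng and Egfl7. Neurl3 averaged 2.68 ± 3.03 in KO cells and 4.81 ± 3.12 in wildtype cells on the log2(RPKM + 1) scale (SD over 12 and 9 cells), a difference of -2.13. Eng averaged 2.25 ± 2.74 in KO cells and 4.34 ± 2.13 in wildtype cells, a difference of -2.09. Egfl7 averaged 7.04 ± 4.39 in KO cells and 8.46 ± 4.57 in wildtype cells, a difference of -1.42. Emcn, the higher one, averaged 3.42 ± 3.89 in KO cells and 2.08 ± 2.98 in wildtype cells, a difference of 1.34. Each of these 4 differences was smaller in size than the SD over the cells of either genotype. Relative to the median of all genes compared they were -1.77 for Neurl3, -1.73 for Eng, -1.06 for Egfl7 and 1.70 for Emcn. Tek differed by -0.89, Esam by -0.54, Kdr by -0.22, Tie1 by -0.16, Sox17 by -0.059 and Sox18 by 0.48. The direction of Kdr, Tie1, Sox17 and Sox18 turned when single cells were left out. Shifting each cell to the same median adds 1 constant to every gene, which took the median of all genes compared to 0.79, and with it Tek, Esam, Kdr, Tie1 and Sox17 came out above 0. Relative to the median of all genes they stayed at -0.52, -0.17, 0.15, 0.21 and 0.31. Emcn lost its size of 1 without any 1 of KO cells 4, 5, 6 or 8 (0.87 to 0.97) and was at 2.23 without wildtype cell 15. Egfl7 was at -0.78 without KO cell 1 and at -0.81 without KO cell 10, and at -2.48 and -2.34 without wildtype cells 13 and 14.

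How many endothelial genes a cell showed ran with how many genes it showed at all. The labels name no preparation batch for these cells, and the files do not give their depth. Across the 21 cells, Spearman's rho between both counts was 0.76. Within KO cells it was 0.79 over 12 cells, and within wildtype cells it was 0.078 over 9 cells, which span a narrower range of genes detected. Whether the genotypes differ in this was not tested. Gene by gene, the level ran with genes detected at rho 0.42 (Kdr) to 0.78 (Eng), with a median of 0.61, and 9 of the 10 reached 0.5. Of all genes compared, 31.9% did so, and their median was 0.40. Cells of nearly equal gene number could still differ widely. KO cell 8, with 3095 genes, wildtype cell 15, with 3119, KO cell 11, with 3160, and KO cell 3, with 3180, held 6, 9, 2 and 1 of the endothelial genes.

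**Figure D3:**
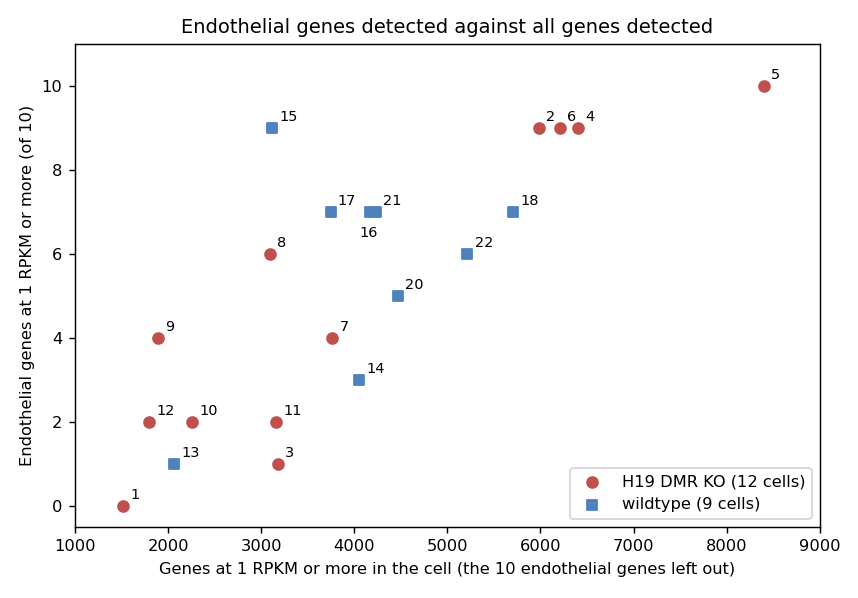
Number of the 10 endothelial genes at 1 RPKM or more (vertical axis) against the number of other genes at 1 RPKM or more (horizontal axis) in each cell; circles are KO cells, squares are wildtype cells and numbers are cell numbers. KO cells 2, 4, 5 and 6 lie at the upper right with 5985 genes or more, beyond every wildtype cell, and the other KO cells lie at or below 6 endothelial genes.

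The genotype difference depended on which KO cells entered it, and in genes detected the KO cells lay on both sides of the wildtype cells. Both genotypes cover 2066 to 5709 detected genes, a range that holds 5 KO cells (3, 7, 8, 10 and 11) and all 9 wildtype cells. These 5 KO cells had 2258 to 3763 genes detected, and the wildtype median was 4169. The genotypes are thus not matched in genes detected within this range, and genotype and genes detected cannot be told apart in it. In this range 15 of 50 values (30.0%) were detected in KO cells and 52 of 90 (57.8%) in wildtype cells. Eng was detected in 1 of 5 KO cells and 8 of 9 wildtype cells, Neurl3 in 1 of 5 and 7 of 9, and Esam in 2 of 5 and 8 of 9. The differences were -3.51 for Eng, -3.41 for Neurl3, -2.57 for Egfl7, -2.08 for Kdr, -2.02 for Tie1 and -1.74 for Esam, and Emcn stayed higher, at 1.29. In these cells the median of all genes compared was -0.64.

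Among cells with at least the wildtype median of 4169 detected genes, the differences of the 10 endothelial genes ran from -0.014 (Egfl7) to 4.67 (Emcn), where the median of all genes compared was 0.89. This set, added after the values were seen, holds KO cells 2, 4, 5 and 6 and wildtype cells 16, 18, 20, 21 and 22, and there 37 of 40 values (92.5%) were detected in KO cells and 32 of 50 (64.0%) in wildtype cells. Egfl7, Neurl3 and Eng were detected in every one of these cells of both genotypes, with differences of -0.014, 0.12 and 0.86. By the size rule 6 of the 10 genes were higher in these KO cells, while 46.5% of the 7840 genes compared in this set were, with a median of 0.89. The 6 genes were Emcn at 4.67, Tie1 at 3.37, Sox17 at 3.14, Kdr at 2.89, Esam at 2.52 and Sox18 at 1.96. Of these, Emcn, Kdr, Sox17 and Sox18 passed the filter in this set through KO cells alone. The filter thus partly sets their calls, and the count is not used as support. Tek differed by 0.51. Relative to the median of all genes compared in this set, Eng was at -0.029, Tek at -0.38, Neurl3 at -0.77 and Egfl7 at -0.90, none above it. On the same relative measure Emcn was at 3.79, Tie1 at 2.48, Sox17 at 2.25, Kdr at 2.00, Esam at 1.64 and Sox18 at 1.07. Kdr was detected in 4 of 4 KO cells and 2 of 5 wildtype cells, and Sox17 in 4 of 4 and 1 of 5. The KO cells of this set had 5985 to 8398 genes detected and the wildtype cells 4169 to 5709, so genotype and genes detected cannot be told apart in it. Of the 10 genes, only Emcn kept its direction, higher in KO cells, in both of these sets and in every other set of cells and setting run, down to 0.030 without the 4 KO cells richest in genes. Over the 5 KO and 7 wildtype cells with Xist, the RNA of X inactivation, under 1 RPKM, also added later, Neurl3 was at 0.17, Egfl7 at 0.047 and Eng at -0.64, and the median of all genes compared was 0.13. The KO cells of that set were 2, 4, 6, 8 and 9, with 1887 to 6402 genes detected, against 3119 to 5709 in its wildtype cells. The genotypes are thus not matched in genes detected there, and a link to Xist was not tested.

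**Figure D4:**
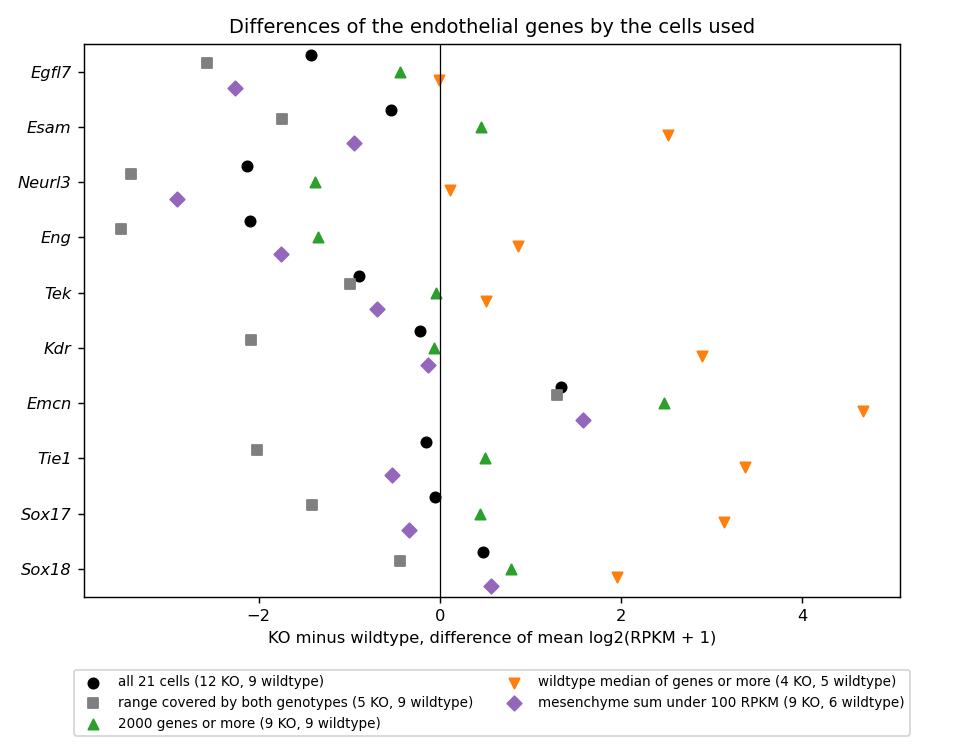
Difference of mean log2(RPKM + 1), KO minus wildtype, of each gene for 5 sets of cells given in the legend with their numbers of KO and wildtype cells; points right of 0 are higher in KO cells. Most genes lie left of 0 in the range of genes detected that both genotypes cover and right of 0 among cells with the wildtype median of genes or more, and Emcn lies right of 0 in all 5 sets.

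The endothelial genes ran together across cells. Over the 45 pairs and 21 cells, the median rho was 0.50 (0.032 to 0.81), all 45 were above 0 and 23 reached 0.5. Of all pairs of genes compared, 6.48% reached 0.5, with a median of 0.15. Given the number of genes detected per cell, the median partial rho of the 45 pairs was 0.21, 38 were above 0 and 6 reached 0.5. Of all pairs of genes compared, 2.13% did so on that measure, with a median of 0.0078. Both measures are descriptions of the same 21 cells, values at 0 tie in rank, and 3 of the 10 genes did not pass the filter on low values that the pairs of all genes passed. For the 21 pairs of the 7 genes that passed, the median rho was 0.54 and the median partial rho 0.33. Within KO cells alone the median rho was 0.61, and within wildtype cells alone it was 0.31, with 38 of 45 pairs above 0.

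Eng and Neurl3, whose promoter windows are shown above, were the closest pair over all cells, with rho 0.81 and partial rho 0.67. They were detected together in 12 cells, Eng without Neurl3 in 1 cell and Neurl3 without Eng in 1 cell. Within KO cells their rho was 0.80 and within wildtype cells 0.73. Neurl3 and Egfl7 followed at 0.76 (partial 0.61), and Neurl3 was never detected without Egfl7. The further pairs with a partial rho of 0.5 or more were Esam and Sox17 (0.55), Egfl7 and Esam (0.54), Emcn and Tek (0.54), and Egfl7 and Tek (0.52). Every cell with Sox17 also held Esam. Sox18 was least like the others, and its rho with Tek was 0.032, with a partial rho of -0.48. No pair among the receptors Kdr, Tek and Tie1 was among those 6. Within wildtype cells alone, though, Kdr and Tek were the closest pair, with rho 0.93, against 0.32 within KO cells. The closest pair within KO cells alone was Egfl7 and Esam, at 0.89.

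**Figure D5:**
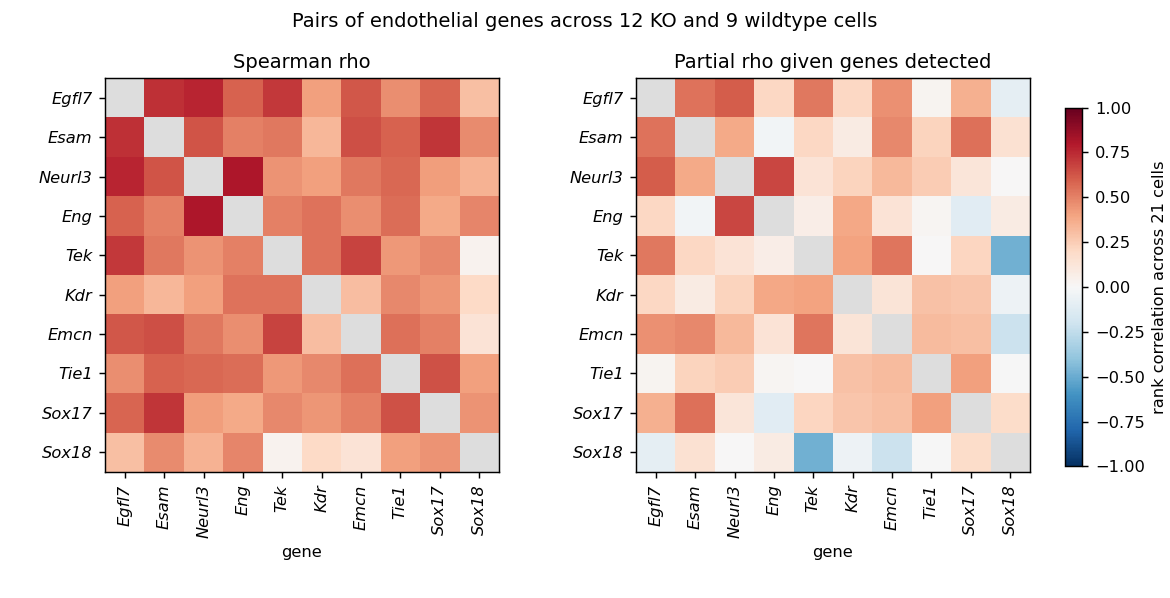
Rank correlation across 12 KO and 9 wildtype cells for each pair of endothelial genes, as Spearman's rho (left) and as partial rho given genes detected per cell (right); red is positive, blue is negative and grey is the gene with itself. All pairs are above 0 on the left, and on the right the darkest pair is Eng with Neurl3 at 0.67.

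Other endothelial genes were read in the same cells. Of a list of 32 further endothelial genes, 30 were in the table and 18 were compared. By the size rule none of the 18 was lower in KO cells and 1, Sox7, was higher. Of all genes compared, 28.0% were lower and 11.4% were higher. Sox7 passed the filter through KO cells alone, and it stands in a block of rows, described below, whose alignment with the cells could not be checked. Per cell 2 to 28 of the 30 were detected in KO cells (median 13) and 3 to 22 in wildtype cells (median 20). The number detected correlated with the number of the 10 genes detected at rho 0.81 (partial 0.52, 21 cells). Lists of blood genes (0.82, partial 0.57), pre-HSC identity genes (0.75, partial 0.50) and epithelial and neural genes (0.74, partial 0.51) had like values. High values were thus not limited to endothelial genes. The pre-HSC list shares Pecam1 and Cdh5 with the endothelial list and Ptprc and Spn with the blood list. The epithelial and neural list came down to Krt8 and Krt18. Lower values were those of erythroid (0.45, partial 0.18), macrophage (0.41, partial -0.0070), megakaryocyte (0.41, partial -0.041) and mesenchyme genes (-0.32, partial -0.46). The largest differences were those of Erg, an ETS factor, at -1.60 and too sparse to be compared, and of Sox7, the remaining SoxF gene, at 1.22, detected in 6 of 12 KO cells and 3 of 9 wildtype cells. Cdh5 was at -0.99, S1pr1, a sphingosine phosphate receptor, at -0.94, Ecscr, an endothelial surface protein, at -0.87 and Plvap, a diaphragm protein of endothelial cells, at -0.81.

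The ligands and partner receptors were mostly low. Of 13 such genes 11 were in the table and 4 were compared, none of them past 1 in either direction. So few genes cannot be set against the 28.0% lower and 11.4% higher of all genes compared. The ligand Vegfa of Kdr was detected in 1 of 12 KO cells and 2 of 9 wildtype cells, and the Tek ligands Angpt1 and Angpt2 in 2 and 3 KO cells and in 2 and 0 wildtype cells, where by the rule of 3 counts 0 of 9 allows a share of up to 33.3%. Of the 4 compared, Nrp1, a coreceptor of Kdr, was at 0.37 and was detected in 8 KO and 6 wildtype cells. Flt1, the other Vegfa receptor, was at -0.33. Tgfbr2, a receptor of the TGF-beta pathway of Eng, was at 0.47. Ptprb (VE-PTP), the phosphatase that acts on Tek, was at -0.79. Acvrl1, the ALK1 receptor that signals with Eng, was detected in 3 KO and 3 wildtype cells.

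Markers of other cell types were read in the same cells. Mesenchyme genes, all 10 of the list in the table and none compared, summed to 0.00364 to 1077 RPKM in KO cells and 0.00104 to 254 RPKM in wildtype cells. The sum was 606, 322 and 1077 RPKM in KO cells 1, 9 and 11, which held 0, 4 and 2 of the endothelial genes. In wildtype cells 13, 14 and 20 it was 156, 254 and 119 RPKM, with 1, 3 and 5 endothelial genes, and every other cell was at or below 24.0 RPKM. The number of mesenchyme genes detected correlated with that of endothelial genes at rho -0.32 (partial -0.46), and Pdgfra was below 1 RPKM in every cell. Without those 6 cells, a set chosen after the values were seen, 52 of 90 values (57.8%) were detected in KO cells and 43 of 60 (71.7%) in wildtype cells, the differences of Neurl3, Egfl7, Eng and Emcn were -2.91, -2.26, -1.75 and 1.57, and the rho with genes detected was 0.74. Blood genes, with 8 of 10 in the table, were detected at 0 to 7 per KO cell and 0 to 6 per wildtype cell. Erythroid genes (7 of 9 in the table), macrophage genes (4 of 7), megakaryocyte genes (3 of 5) and epithelial and neural genes (2 of 7) were detected at 2 or fewer per cell in both genotypes. The summed erythroid level was 0 to 148 RPKM in KO cells and 0 to 239 RPKM in wildtype cells, and the summed macrophage level, led by Lyz2, was 0 to 700.5 RPKM in KO cells and 0.00168 to 1951 RPKM in wildtype cells. The megakaryocyte sum was 0 to 36.4 RPKM in KO cells and 0 to 12.5 RPKM in wildtype cells. The epithelial and neural sum, led by Krt18, was 0 to 479 RPKM in KO cells and 0 to 520.1 RPKM in wildtype cells. C1qb of macrophages and Pf4 of megakaryocytes were at 0 in all cells. The part of other cell types in these results was not tested beyond leaving out those 6 cells.

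Genes of pre-HSC identity, all 10 in the table and 6 compared, included 2 lower by the size rule, a share near the 28.0% of all genes compared. These were Gfi1 and Runx1, transcription factors of the endothelial-to-blood change. Gfi1 was detected in 0 of 12 KO cells, which by the rule of 3 counts allows a share of up to 25.0%, and in 7 of 9 wildtype cells. Runx1 was detected in 4 of 12 KO cells and 6 of 9 wildtype cells. Their differences were -2.57 and -2.70, and the 2 genes passed the filter through wildtype cells alone. Both, like Sox7, stand in the block of 24 rows that precedes the alphabetical part of the table, whose alignment with the cells could not be checked. None of the 10 endothelial genes stands there. Procr (EPCR), a surface marker of pre-HSCs, was found in 9 of 12 KO cells and 8 of 9 wildtype cells.

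By partial rho with the mean level of the 10 genes across the 21 cells, the nearest of the 3321 genes ranked were Pdia3 (0.83), a disulfide isomerase of the endoplasmic reticulum, Tspan31 (0.75), a tetraspanin, Ctsh (0.75) and Ctsc (0.73), lysosomal cathepsins, and Cenpt (0.74), a kinetochore protein. Pdia3 was detected in 10 of 12 KO cells and 8 of 9 wildtype cells, as often as Egfl7.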

How the data were processed

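The deposited table gives RPKM per gene and cell, made by the authors. The submitters' processing notes name Cufflinks 2.1.0 and build mm10. The sources used here do not give the aligner or annotation. Whole reads cannot be recovered, and depth per cell is unknown. RPKM divides by each cell's total, so a few high genes lower all others. Columns were matched to cells by number. From the values were computed detection at 1 RPKM, means of log2(RPKM + 1) with a pseudocount of 1, Spearman and partial rank correlations and exact binomial 95% intervals, with Python 3.11.15, pandas 2.3.3, numpy 2.4.6 and SciPy 1.17.1, tested on simulated data. The filter, the size rule of 1 and the exclusion of wildtype cell 19 are given above. By rule the text names, beside the 10, the 5 nearest genes by partial rho, ligands and partners, H19 and the endothelial genes with the largest differences. Other named genes, mostly markers of the lists, were chosen after their values were seen. The genes and lists were chosen with earlier results of these data known. Gene spans, over all transcripts, and promoter windows come from RefSeq on GRCm38.p6. Alternatives covered the pseudocount, detection threshold, scaling, filter and cells used. The adult and methylation samples were not used here.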

Additional observations from a re-analysis of the deposited data

Results flagged for a closer look

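Among the 9 wildtype cells, 1 value stood far from the others in 2 of the 12 measures checked. A check of this kind singles out about 5% of groups by chance where the values follow a normal distribution. Sox18 was listed at 0 in 7 of the 9 wildtype cells, so that rate need not hold for it or for other sparse genes. In the wildtype cells Emcn was detected in 4 of 9 and Sox18 in 1 of 9. Emcn was at 9.24 on the log2(RPKM + 1) scale in wildtype cell 15, or 603 RPKM, while the next wildtype cell was at 18.3 RPKM. That cell also held the highest Sox17 value of all cells, 275 RPKM, and 9 of the 10 endothelial genes. Sox18 was at 3.56 on the same scale in wildtype cell 18, or 10.8 RPKM, while the next wildtype cell was at 0.304 RPKM. KO groups of 12 cells are too large for this check.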

How the results depend on the processing

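The median correlation of 0.50 between the endothelial genes was 0.21 given genes detected, 0.31 within wildtype cells, 0.31 over cells with Xist under 1 RPKM and 0.20 among cells of both genotypes with at least the wildtype median of genes detected. In that last set the share of values detected was 28.5 percentage points higher in KO cells, against -9.44 points over all cells, the median difference was 2.24, against -0.38, Eng came to 0.86 and Neurl3 to 0.12, and the median of all genes compared went to 0.89, against -0.36. With Xist under 1 RPKM, Egfl7 came to 0.047 and Neurl3 to 0.17, with all genes at 0.13. The share and median differences of the endothelial genes had no stable sign. In the range of genes detected that both genotypes cover they were -27.8 points and -1.88, without the 4 KO cells richest in genes -31.5 points and -1.98, without cells under 2000 genes 0 points and 0.20, and with Xist under 1 RPKM 11.1 points and 0.40. The median difference was 0.78 with each cell shifted to the same median. The correlation of 0.76 between endothelial genes detected and all genes detected was 0.87 with detection at 0.1 RPKM, 0.44 in the range of genes detected that both genotypes cover, 0.59 without the 4 KO cells richest in genes, 0.70 without cells under 2000 genes, 0.66 with wildtype cell 19, 0.60 with Xist under 1 RPKM and 0.078 in wildtype cells alone. The number of genes past a difference of 1 was 4, and it was 2 with a pseudocount of 10 and 1 with each cell shifted to the same median, which moved the median of all genes compared to 0.79. Leaving out each cell in turn, the share difference ranged from -15.4 (without wildtype cell 13) to -5.05 points (without KO cell 1), the median difference from -0.76 (without KO cell 5) to -0.034 (without wildtype cell 15), the count from 3 to 5, the pair correlation from 0.47 to 0.54 and the depth correlation from 0.72 to 0.85. Causes were not tested. No paired analysis was possible because KO and wildtype cells share no replicate number. Depth per cell is unknown, so a gene below 1 RPKM was not shown to be absent.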

Other observations

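Arterial and venous genes were read in the same cells. Of 12 arterial genes 11 were in the table and 4 were compared, none of them past 1 in either direction. Of all genes compared, 28.0% were lower and 11.4% higher, and 4 genes are too few to set against these shares. Per KO cell 0 to 11 of the arterial genes were detected (median 2.5) and per wildtype cell 0 to 7 (median 4). The number of arterial genes detected correlated with the number of the 10 endothelial genes at rho 0.66 (partial 0.36, 21 cells). Gja4, a gap junction gene of arteries, was detected in 5 of 12 KO cells and 1 of 9 wildtype cells, with highest values of 582 RPKM in KO cells and 16.0 RPKM in wildtype cells. Dll4, a Notch ligand, was detected in 3 KO and 2 wildtype cells. Gja4 and Dll4 were both too sparse to be compared. Of the 11 arterial genes, only Hey2 (-1.07, too sparse to be compared) and Bmx (-0.64) had lower means in KO cells. The median difference of the 11 was 0.47. Of 3 venous genes 2 were in the table and none was compared. Ephb4, a venous receptor, was detected in 5 KO cells and 1 wildtype cell, and Nr2f2, a venous transcription factor, in 3 and 2. The number of venous genes detected had a rho of -0.15 with the number of endothelial genes.

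Wildtype cell 19, left out above, had 1 of the 10 endothelial genes at 1 RPKM or more, Eng at 25.7 RPKM, among 5359 other genes detected, and Actb and Rplp0, which other cells hold at high levels, were listed at 0 in its column.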
